A study of Mus musculus with 12 samples.

Results

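The proteasome genes of the mouse hypothalamus, a brain centre of feeding and metabolism, were followed across 12 bulk RNA sequencing libraries. They were taken by name: every gene whose symbol begins with Psma, Psmb, Psmc or Psmd followed by a digit, with pseudogene names left out. This gave 40 of the 78334 genes counted, and 38 of them were tested. Psma8, a testis form of an alpha subunit, and Psmb11, a subunit of the thymus proteasome, had at most 6 and 10 counts in any library and did not pass the filter on low counts. Psmc3ip, a factor of meiotic recombination that the name rule also takes, is no proteasome subunit and is counted here but not described further.

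The proteasome is the barrel-shaped protease that degrades ubiquitin-tagged proteins in the cytosol and nucleus. Its 20S core is a stack of alpha rings, which gate entry, around beta rings, which hold the cutting sites. Its 19S cap recognises ubiquitin, unfolds the substrate with a ring of ATPases (Psmc genes) and feeds it into the core, with the remaining cap subunits carried by Psmd genes. Interferon and inflammation can replace the constitutive cutting subunits Psmb6, Psmb7 and Psmb5 by the inducible Psmb9, Psmb10 and Psmb8, which form the immunoproteasome. Neurons depend on the proteasome to remove damaged and short-lived proteins.

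All mice were male C57BL/6. In the curcumin group (n = 3) pups had 1 streptozotocin injection of 70 mg/kg, a toxin of pancreatic beta cells, on postnatal day 2, then from 3 weeks of age 8 weeks of a diet with 60% of its energy as fat, and they were gavaged for 28 days with curcumin at 50 mg/kg, a polyphenol of turmeric. The garlic group (n = 2) had the same injection and diet, with aged garlic extract at 200 mg/kg in place of curcumin. The diabetes group (n = 4) had the injection and the diet with vehicle. The control group (n = 3) had a standard diet and vehicle. A comparison with control cannot tell the injection apart from the diet, and age at sampling is not given. The labels start treatment both at week 7 of the diet and after 11 weeks, so its timing is unresolved. Nothing in the labels says that the libraries came from separate animals, so the p-values measure the spread between libraries, which may be technical.

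The libraries held 12950017 to 30271706 counts. Curcumin library 2 stood apart: the summed level of 15 hypothalamic marker genes was 8.79 CPM (the count relative to scaled library size), with Fezf1 and Hcrt at 0, against 537 and 1482 CPM in the other curcumin libraries, 931 to 2185 CPM in the garlic, 2126 to 4495 CPM in the diabetes and 1441 to 2037 CPM in the control libraries. Agrp, one of these markers, was at 0 in all diabetes libraries, and also in curcumin library 1 and garlic library 2. Diabetes library 4 held 6 anterior pituitary markers at a sum of 853 CPM, with Pou1f1 and Lhb at 0, against at most 15.2 CPM in every other library. Counts of genes without overlap between groups, and some medians and counts of genes passing, are also given without these libraries. Results of DESeq2, limma-voom and the length correction, and most fold changes of single genes, use all libraries. The diabetes libraries also had fewer detected genes, 20133 to 22515 at the lowest depth, against 25766 to 33157 in control. The summed level of 8 neuronal markers, none of them at 0, was 2747 to 3037 CPM in diabetes and 3425 to 3620 CPM in control. That of 5 blood markers, none at 0, was 264 to 1755 CPM in diabetes and 87.5 to 196 CPM in control. That of 7 thalamic and habenular markers was 104 to 149 CPM in diabetes and 172 to 361 CPM in control, with Gbx2 at 0 in diabetes libraries 1 and 2. Control library 3 differed in its summed level of 5 astrocyte markers, none at 0. This was 813 CPM, against 1908 to 2830 CPM in every other library. Its sum of 5 choroid plexus markers was 13.5 CPM, against 37.2 and 42.5 CPM in the other control libraries.

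The promoter windows of 4 genes are shown because they belong to the genes on which the comparisons turn: Psmb6 and Psma7, which had the smallest p-values in diabetes, Psmb5, the catalytic subunit with the chymotrypsin-like site, and Psmd11, a cap subunit whose level barely differed. Each is the RefSeq window of 250 bases before to 50 after the annotated start, on GRCm38.p6, written 5′ to 3′ on the gene's strand. They lie at chr11:70525107-70525406 on the plus strand (Psmb6), chr2:180042415-180042714 on the minus strand (Psma7), chr14:54617946-54618245 on the minus strand (Psmb5) and chr11:80428365-80428664 on the plus strand (Psmd11). Capitals mark the letters TGACNNNGC, the antioxidant response element bound by NRF1 and NRF2, or CCAAT, the box bound by NF-Y.
Psmb6: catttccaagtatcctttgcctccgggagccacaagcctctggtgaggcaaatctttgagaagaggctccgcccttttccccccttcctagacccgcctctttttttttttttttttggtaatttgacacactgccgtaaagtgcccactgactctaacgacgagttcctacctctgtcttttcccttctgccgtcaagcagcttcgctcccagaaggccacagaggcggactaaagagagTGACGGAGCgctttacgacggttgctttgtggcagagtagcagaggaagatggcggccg
Psma7: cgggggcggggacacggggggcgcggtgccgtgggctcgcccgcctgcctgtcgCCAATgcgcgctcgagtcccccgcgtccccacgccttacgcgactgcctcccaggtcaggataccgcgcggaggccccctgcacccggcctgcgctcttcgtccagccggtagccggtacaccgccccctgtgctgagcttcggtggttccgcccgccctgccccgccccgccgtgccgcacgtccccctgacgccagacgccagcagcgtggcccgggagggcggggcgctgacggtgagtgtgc
Psmb5: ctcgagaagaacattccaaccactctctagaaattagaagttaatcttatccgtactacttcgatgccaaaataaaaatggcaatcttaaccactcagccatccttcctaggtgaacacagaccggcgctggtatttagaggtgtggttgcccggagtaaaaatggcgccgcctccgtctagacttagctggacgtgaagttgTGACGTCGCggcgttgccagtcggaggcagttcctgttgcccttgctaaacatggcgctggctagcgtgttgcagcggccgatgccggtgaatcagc
Psmd11: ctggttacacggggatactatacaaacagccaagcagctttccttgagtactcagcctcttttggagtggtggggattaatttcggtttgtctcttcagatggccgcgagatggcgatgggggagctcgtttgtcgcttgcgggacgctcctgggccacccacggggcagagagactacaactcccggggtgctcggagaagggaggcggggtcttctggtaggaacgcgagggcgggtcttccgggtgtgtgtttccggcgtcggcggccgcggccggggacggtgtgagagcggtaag
Of the 40 genes, 33 had such windows, 35 windows in all. On either strand, TGACNNNGC was found in 14.3% of them, against 12.4% of all 32851 windows, and CCAAT in 40.0% against 37.4%. The windows with TGACNNNGC were those of Psmb5, Psmb6, Psmc6, Psmd9 and Psmd12. The GC box GGGCGG stood in 54.3% of the member windows against 35.7% of all windows. The ETS site CCGGAAG stood in 34.3% against 8.86%, in 9 of 14 cap genes with a window and in 1 of 11 core genes. These are matches of letters in the window and were not measured as bound.

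**Figure D1:**
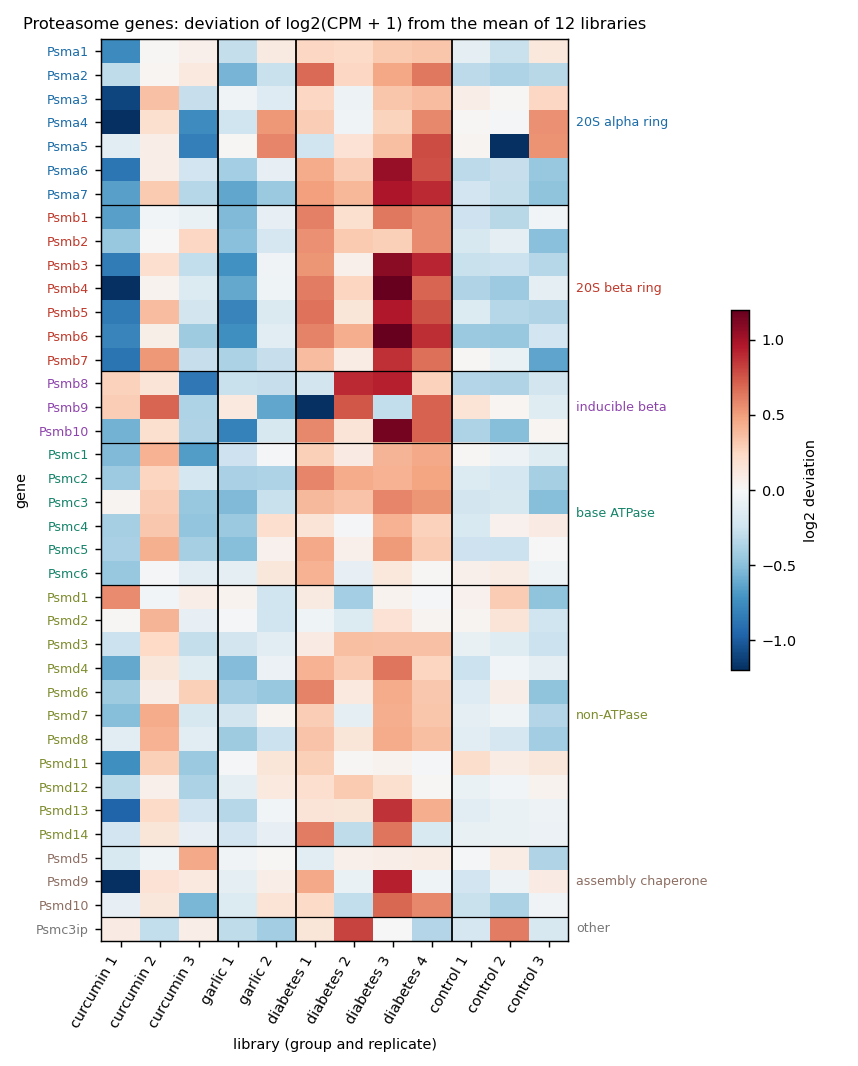
Deviation of log2(CPM + 1) from the mean over 12 libraries for the 38 proteasome genes tested, 1 column per library and 1 line per gene, grouped by role. Red is above and blue below the gene's own mean, and the colour saturates at 1.2. The 4 diabetes libraries are mostly red in the alpha and beta rings, curcumin library 2 is redder than the other 2 curcumin libraries, and control is paler than diabetes.

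The comparison of diabetes with control asked how proteasome transcripts stood in the hypothalamus of the diabetes model. All 7 constitutive genes of the beta ring were higher in each diabetes library than in each control library, though none passed the adjusted test. By edgeR with Benjamini-Hochberg adjustment over all 25562 genes, 0 of 38 members passed in either direction, where 0.0156% of all genes passed as higher and 0% as lower. The log2 fold change was above 0 for 36 of 38 members, against 45.9% of all genes, with a median of 0.52 against -0.07 for all genes. At an unadjusted p under 0.05, 18 members were higher (4.79% of all genes) and 0 lower (7.48% of all genes). The groups did not overlap, with diabetes higher, for 22 members, against 5.78% of all genes, and for 23 members without diabetes library 4, against 7.25%. The adjusted p-values of the members ran from 0.122 to 0.997.

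The call depended on the tool. DESeq2 passed 13 members as higher (1.86% of all genes): Psma2, Psma6, Psma7, Psmb1, Psmb2, Psmb3, Psmb4, Psmb5, Psmb6, Psmb10, Psmc2, Psmc3 and Psmd8. limma-voom with library weights passed 12 (2.83% of all genes), those of DESeq2 other than Psmd8. edgeR itself passed Psmb6 and Psma7 as higher when curcumin library 1 (0.337% of all genes), curcumin library 2 (0.359%) or garlic library 2 (0.497%) was left out of the shared model, and Psma6 beside them without garlic library 1 (0.582%). Without curcumin library 3 it passed 0 members and 0% of all genes. It passed 0 members without any 1 of the 7 diabetes and control libraries, where at most 0.00396% of all genes passed.

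Among the cutting subunits, Psmb6, which carries the caspase-like site, stood at 219.7, 197, 339.5 and 269 CPM in the diabetes libraries, against 107, 106 and 124 CPM in the control libraries. The lowest diabetes library lay well above the highest control library, and the log2 fold change was 1.19 ± 0.26 (SE, adjusted p = 0.122). Psmb5 was at 84.4, 59.0, 105 and 91.1 CPM in diabetes and 47.6, 41.8 and 41.4 CPM in control (log2 fold change 0.96 ± 0.28, adjusted p = 0.221). Psmb7, which carries the trypsin-like site, was at 105, 86.2, 149 and 128 CPM in diabetes and 81.8, 76.8 and 51.7 CPM in control (log2 fold change 0.74 ± 0.29, adjusted p = 0.335). For both genes the groups did not overlap, with diabetes library 2 closest to control.

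The remaining beta subunits, which build the ring without cutting, lay in the same direction. Psmb4 averaged 323 ± 106 CPM in diabetes and 153 ± 19.2 CPM in control (SD, n = 4 and 3, log2 fold change 1.08 ± 0.30, adjusted p = 0.187). Over the 7 genes of the ring the log2 fold change ran from 0.70 to 1.19, with a median of 0.96. All 7 were higher at an unadjusted p under 0.05 (4.79% of all genes).

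The alpha ring was split. Psma7 was at 162, 151, 227 and 214 CPM in diabetes and 97.9, 94.0 and 81.8 CPM in control (log2 fold change 1.05 ± 0.24, adjusted p = 0.125). Psma2 was at 133, 98.5, 114 and 129 CPM in diabetes and 66.2, 63.5 and 65.3 CPM in control (log2 fold change 0.87 ± 0.21, adjusted p = 0.127). Psma6 was at 141, 127, 213 and 177 CPM in diabetes and 83.0, 85.2 and 74.9 CPM in control (log2 fold change 1.02 ± 0.25, adjusted p = 0.136). None of these 3 overlapped between the groups. Psma1 did not overlap either, at 99.5, 98.6, 104 and 106 CPM in diabetes and 77.3, 69.7 and 91.5 CPM in control (log2 fold change 0.36 ± 0.23, adjusted p = 0.588). Psma3, whose tail helps to close the gate of the core, overlapped fully, at 30.1, 24.0, 32.0 and 32.8 CPM in diabetes and 26.6, 25.4 and 30.0 CPM in control (log2 fold change 0.12 ± 0.30, adjusted p = 0.978). Psma4 and Psma5 overlapped too, with log2 fold changes of 0.08 and 0.43, and the median of the 7 alpha genes was 0.43.

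In the cap, the 6 ATPases had a median log2 fold change of 0.45, and 4 did not overlap, with diabetes higher (5.78% of all genes). Psmc3 averaged 211 ± 16.7 CPM in diabetes and 124 ± 14.7 CPM in control (log2 fold change 0.77 ± 0.21, adjusted p = 0.194), and Psmc2 161 ± 8.49 CPM in diabetes and 96.4 ± 8.29 CPM in control (log2 fold change 0.74 ± 0.21, adjusted p = 0.191). Psmc4 overlapped, at 116, 102, 139 and 127 CPM in diabetes and 91.6, 108 and 112 CPM in control (log2 fold change 0.22 ± 0.24, adjusted p = 0.861). Psmc6 was the ATPase with the smallest log2 fold change, 0.10 ± 0.21.

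The 11 non-ATPase subunits had a median log2 fold change of 0.42. Of these, 5 did not overlap, with diabetes higher (5.78% of all genes): Psmd3, Psmd4, a ubiquitin receptor, Psmd6, Psmd8 and Psmd13. Psmd11, a scaffold of the lid, was at 63.8, 52.4, 53.5 and 51.6 CPM in diabetes and 60.3, 55.3 and 57.3 CPM in control (log2 fold change -0.06 ± 0.24, adjusted p = 0.990). Psmd1, a large scaffold of the base, was at 132, 91.6, 125 and 120.1 CPM in diabetes and 126, 151 and 87.4 CPM in control (log2 fold change -0.05 ± 0.23, adjusted p = 0.991). These were the 2 members with a log2 fold change below 0, and for both the control range and the diabetes range overlapped. Psmd14, the deubiquitinase of the lid, divided the diabetes libraries: libraries 1 and 3 were at 112 and 114 CPM and libraries 2 and 4 at 58.7 and 63.9 CPM, against 68.1, 68.6 and 69.1 CPM in control (log2 fold change 0.34 ± 0.25, adjusted p = 0.681). The assembly chaperones Psmd5, Psmd9 and Psmd10, which help to build the cap and are not part of the finished particle, all overlapped, with log2 fold changes of 0.12, 0.45 and 0.60.

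**Figure D2:**
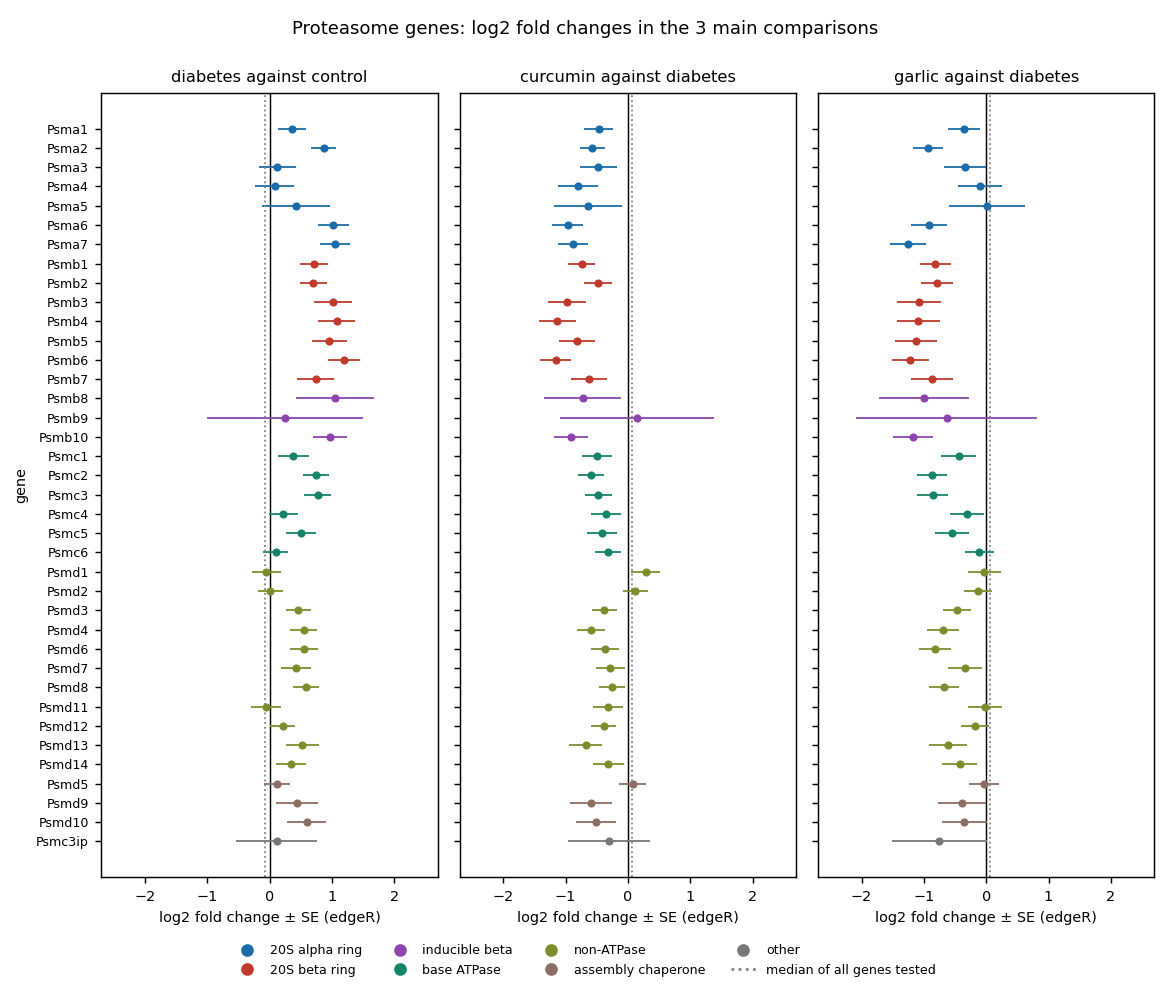
Log2 fold change with its standard error from edgeR for each of the 38 genes tested, in 3 panels: diabetes against control, curcumin against diabetes and garlic against diabetes. Colours give the role, and the dotted line is the median of all 25562 genes. The beta ring lies to the right in the first panel (median 0.96) and to the left in the others (medians -0.82 and -1.07), where the same 4 diabetes libraries are the reference.

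Summed over genes, the 14 core genes tested came to 1743, 1442, 2250.4 and 1963 CPM in the diabetes libraries, against 1025, 981 and 1066 CPM in control. The 17 cap genes came to 2494, 2148, 2677 and 2417 CPM in diabetes, against 1869, 1945 and 1746 CPM in control. Neither sum overlapped between these groups. The core sum divided by the cap sum was 0.699, 0.672, 0.841 and 0.812 in diabetes and 0.548, 0.504 and 0.610 in control, so the diabetes libraries were higher for the core relative to the cap too. That ratio was 0.417 to 0.629 in curcumin and 0.510 to 0.600 in garlic, and no library outside diabetes reached the lowest diabetes value. The median log2 fold change of diabetes against control was 0.80 for the core genes and 0.42 for the cap genes, and that difference was not tested. In bulk tissue, more or fewer cells of a type and more or less RNA per cell cannot be told apart.

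**Figure D3:**
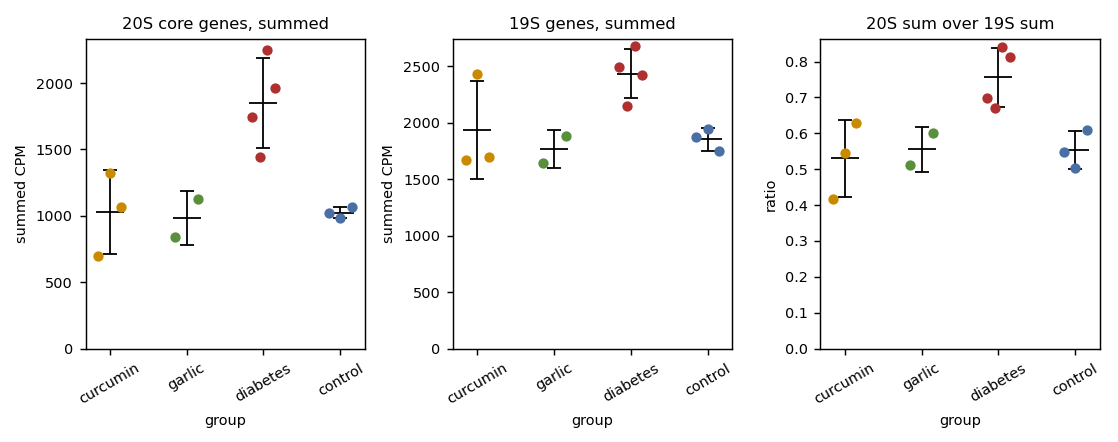
Summed CPM of the 14 core genes, summed CPM of the 17 cap genes, and their ratio, with 1 point per library and the group mean ± SD in black. The diabetes points are the highest of the core sums (1442 to 2250.4 CPM) and of the ratios (0.672 to 0.841), while in the cap sums curcumin library 2 (2432 CPM) lies within the diabetes range.

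Core transcripts are short, with a median length of 1162.5 bases against 1636 for the cap genes and 2480 for all genes with a length. With each library's trend on transcript length removed, the median log2 fold change of the members in diabetes was 0.49, that of the core 0.79 and that of the cap 0.36, against 0.11 for all genes. edgeR then passed 6 members as higher (0.896% of all genes): Psma2, Psma6, Psma7, Psmb4, Psmb6 and Psmc2. With the number of detected genes as a covariate, the median of the members was 0.90, against 0.07 for all genes. In that model 0 members and 0% of all genes passed. The number of detected genes did not overlap between diabetes and control, so the model cannot fully separate it from the group. The hypothalamic marker sum was 2126 to 4495 CPM in diabetes and 1441 to 2037 CPM in control, without overlap. The part of the hypothalamic, neuronal, blood and thalamic markers in these differences was not tested. Without diabetes library 4, which held the pituitary markers, the members' median log2 fold change was 0.52.

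The immunoproteasome subunits were of unequal level. Psmb10, which has the trypsin-like site, was at 86.9, 64.6, 130.02 and 95.2 CPM in diabetes and 44.4, 40.4 and 58.9 CPM in control, without overlap (log2 fold change 0.97 ± 0.28, adjusted p = 0.201). Psmb8, which has the chymotrypsin-like site, had few counts, at 3.32, 8.39, 8.62 and 5.12 CPM in diabetes and 2.95, 2.93 and 3.31 CPM in control (log2 fold change 1.05 ± 0.63, adjusted p = 0.552). Its groups were only just apart, and the counts behind it were 94, 149, 99 and 99 in diabetes and 70, 53 and 73 in control. Psmb9 had 0, 57, 12 and 60 counts in diabetes and 43, 28 and 28 in control, so the groups overlapped fully (log2 fold change 0.25 ± 1.25, adjusted p = 0.993). The library with 0 counts of Psmb9 was the deepest of all 12.

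Set per kilobase of transcript against the constitutive subunit each replaces, Psmb10 stood at 70.6 ± 5.58% of Psmb7 in diabetes and 65.1 ± 30.8% in control (SD, n = 4 and 3). Psmb8 was at 4.42 ± 2.49% of Psmb5 in diabetes and 3.90 ± 0.49% in control. Psmb9 was at 0.456 ± 0.443% of Psmb6 in diabetes and 0.824 ± 0.202% in control. The ranges of diabetes and control overlapped for each of the 3 ratios, so the inducible share did not differ beyond the spread of the libraries. The summed level of 7 microglial markers, none of them at 0, was 242 to 417 CPM in diabetes and 227 to 287 CPM in control.

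**Figure D4:**
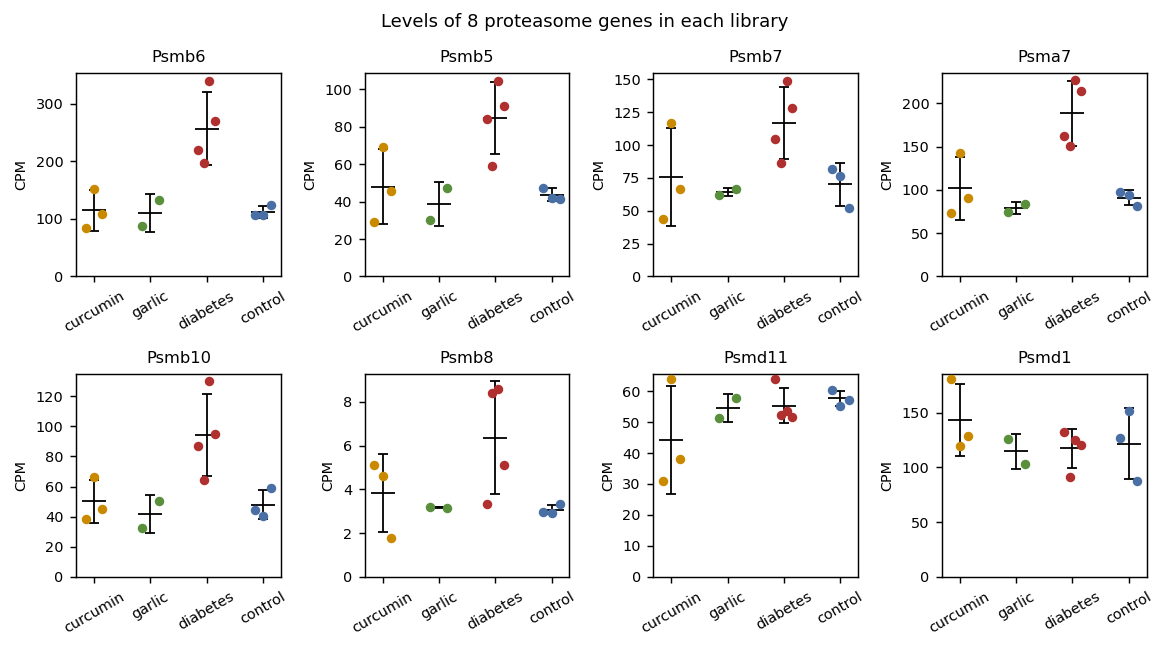
CPM of 8 proteasome genes in each library, with 1 point per library and the group mean ± SD in black, in the order curcumin, garlic, diabetes and control. Psmb6, Psmb5, Psmb7, Psma7 and Psmb10 have their highest mean in diabetes, Psmb8 has few counts and a wide spread, and Psmd11 and Psmd1 show no separation of diabetes from control.

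The comparison of curcumin with diabetes asked whether treatment went with other levels than diabetes alone. Most core genes were at lower levels in curcumin libraries 1 and 3, while curcumin library 2, which lacked the hypothalamic markers, lay nearest to diabetes. By edgeR 0 of 38 members passed, where 0.00391% of all genes passed as higher and 0.0861% as lower. The log2 fold change was below 0 for 34 members, against 46.7% of all genes, with a median of -0.49 against 0.07 for all genes. At an unadjusted p under 0.05, 16 members were lower (6.71% of all genes) and 0 higher (10.5% of all genes). Curcumin did not overlap diabetes, on the lower side, for 11 members, against 4.19% of all genes. Without curcumin library 1, 9 members were lower at that unadjusted threshold (4.06% of all genes), with a median of -0.35. Adjusted p-values of the members ran from 0.0648 to 0.976. With the trend on transcript length removed, the median of the members was -0.29, that of the core -0.53 and that of the cap -0.21, against -0.02 for all genes, and 0 members passed. The diabetes libraries are the same as in the comparison with control, so a high value in them enters both.

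Without curcumin library 2 the result was larger: edgeR passed 14 members as lower (4.82% of all genes), the median log2 fold change was -0.68, and 27 members did not overlap (12.7% of all genes). Those that passed were Psma4, Psma6, Psma7, Psmb1, Psmb3, Psmb4, Psmb5, Psmb6, Psmb7, Psmb10, Psmc1, Psmc2, Psmd4 and Psmd13. Without diabetes library 4 as well, 8 members passed as lower (3.3% of all genes) and 27 did not overlap (14.4% of all genes). With all libraries, DESeq2 passed 8 members as lower (2.62% of all genes) and limma-voom passed Psmb6 only (0.45% of all genes). edgeR passed Psma6, Psmb4 and Psmb6 as lower without garlic library 1 in the shared model (1.24% of all genes), and the same 3 genes without garlic library 2 (1.16%).

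Psmb6 was at 83.4, 152 and 108 CPM in curcumin, all below the lowest diabetes library at 197 CPM (log2 fold change -1.16 ± 0.26, adjusted p = 0.0648). Psma6 was at 56.0, 109 and 87.6 CPM in curcumin, all below the lowest diabetes library at 127 CPM (log2 fold change -0.97 ± 0.25, adjusted p = 0.0957). Psmb4 was at 81.1, 193 and 168 CPM in curcumin, against 225 CPM in the lowest diabetes library (log2 fold change -1.13 ± 0.30, adjusted p = 0.0999). In each of these genes curcumin library 1 was lowest and library 2 highest. Psma7 was at 72.8, 143 and 90.6 CPM in curcumin, against 151 CPM in the lowest diabetes library, again without overlap (log2 fold change -0.89 ± 0.24, adjusted p = 0.110).

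The other cutting subunits overlapped with diabetes through library 2. Psmb5 was at 29.2, 69.4 and 45.7 CPM in curcumin, against 59.0 to 105 CPM in diabetes (log2 fold change -0.82 ± 0.28, adjusted p = 0.175). Psmb7 was at 43.7, 116 and 66.8 CPM in curcumin, against 86.2 to 149 CPM in diabetes (log2 fold change -0.63 ± 0.29, adjusted p = 0.278). Of the inducible subunits, Psmb10 was at 38.7, 66.5 and 44.9 CPM in curcumin, against 64.6 to 130.02 CPM in diabetes (log2 fold change -0.91 ± 0.28, adjusted p = 0.134). Psmb8, at 5.11, 4.62 and 1.78 CPM in curcumin, and Psmb9, at 2.08, 3.08 and 0.942 CPM, both overlapped with diabetes, with log2 fold changes of -0.73 ± 0.62 and 0.15 ± 1.24.

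In the cap, Psmd1 lay in the opposite direction, at 181, 119.6 and 129 CPM in curcumin, against 91.6 to 132 CPM in diabetes (log2 fold change 0.29 ± 0.23, adjusted p = 0.594). Psmd2, another scaffold of the base, was at 189, 249 and 175 CPM in curcumin and 167 to 211 CPM in diabetes, and Psmd5 at 57.6, 62.8 and 89.8 CPM in curcumin and 59.8 to 69.7 CPM in diabetes. With Psmb9 these 3 were the members with a log2 fold change above 0, and all 4 overlapped with diabetes. Psmd11 was at 30.9, 63.9 and 38.01 CPM in curcumin (log2 fold change -0.32 ± 0.24, adjusted p = 0.551), where library 2 was level with the highest diabetes library and the other libraries lay below every diabetes library. Psmc4, Psmd14 and Psma3 overlapped with diabetes too, with log2 fold changes of -0.35, -0.31 and -0.48. Over the 38 genes, curcumin library 2 was the highest of its group for 30 and library 1 the lowest for 25. The median log2 fold change was -0.77 for the core genes and -0.37 for the cap genes. The number of detected genes was 20917 to 29126 in curcumin and 20133 to 22515 in diabetes, and the neuronal marker sum 2982 to 4585 CPM in curcumin and 2747 to 3037 CPM in diabetes. The blood marker sum was 122 to 504 CPM in curcumin and 264 to 1755 CPM in diabetes. The hypothalamic marker sum was 8.79 to 1482 CPM in curcumin and 2126 to 4495 CPM in diabetes, without overlap. The part of these measures in the result was not tested.

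The comparison of garlic with diabetes asked the same of aged garlic extract, with 2 garlic libraries against the same 4 diabetes libraries. All 7 genes of the beta ring were lower in both garlic libraries than in any diabetes library. By edgeR 0 of 38 members passed, as did 0% of all genes in either direction. The log2 fold change was below 0 for 37 members, against 46.1% of all genes, with a median of -0.62 against 0.07 for all genes. At an unadjusted p under 0.05, 16 members were lower (4.03% of all genes) and 0 higher (6.9% of all genes). Without garlic library 1, 7 members were lower at that threshold (1.53% of all genes), with a median of -0.49. Garlic did not overlap diabetes, on the lower side, for 22 members, against 7.52% of all genes, and for 24 without diabetes library 4, against 9.32%. DESeq2 passed 13 members as lower (1.56% of all genes): Psma2, Psma6, Psma7, Psmb1, Psmb2, Psmb4, Psmb5, Psmb6, Psmb10, Psmc2, Psmc3, Psmd6 and Psmd8. limma-voom passed 10 (1.4% of all genes), those of DESeq2 other than Psmb2, Psmd6 and Psmd8. edgeR passed Psma7 as lower without curcumin library 2 in the shared model (0.225% of all genes). With the trend on transcript length removed it passed 6 members as lower (0.973% of all genes), and the median of the members was -0.60 against -0.13 for all genes.

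Psma7 was at 74.1 and 84.1 CPM in garlic, against 151 CPM in the lowest diabetes library (log2 fold change -1.25 ± 0.29, adjusted p = 0.176). Psmb6 was at 86.8 and 133 CPM in garlic, against 197 CPM in the lowest diabetes library (log2 fold change -1.22 ± 0.30, adjusted p = 0.187). Psma2 was at 55.7 and 68.4 CPM in garlic, against 98.5 CPM in the lowest diabetes library (log2 fold change -0.93 ± 0.24, adjusted p = 0.205). None of these genes overlapped between the groups. Psmb10 was at 32.7 and 50.6 CPM in garlic, against 64.6 CPM in the lowest diabetes library (log2 fold change -1.18 ± 0.32, adjusted p = 0.220). Psmb5, at 30.4 and 47.2 CPM, and Psmb7, at 61.8 and 66.4 CPM, were below every diabetes library as well, with log2 fold changes of -1.13 ± 0.33 and -0.87 ± 0.34.

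The inducible Psmb8 was at 3.19 and 3.16 CPM in garlic, just below the lowest diabetes library at 3.32 CPM, and Psmb9, at 1.73 and 0.632 CPM, lay within the diabetes range. Psma5, the only member with a log2 fold change above 0, was at 6.65 and 10.3 CPM in garlic and 5.40, 7.55, 8.70 and 12.0 CPM in diabetes (log2 fold change 0.01 ± 0.61). Psmd11 was at 51.3 and 57.8 CPM in garlic, inside the diabetes range (log2 fold change -0.02 ± 0.27). Psmc4 was at 76.5 and 119.8 CPM, with the second library inside the diabetes range, and Psmd14, at 61.8 and 67.7 CPM, was inside it altogether. Psma3, at 24.3 and 22.5 CPM, had 1 library below every diabetes library. Garlic library 2 was the higher of the pair for 31 of 38 members. The ring medians were -1.07 for the constitutive beta genes and -0.36 for the alpha genes, with -0.44 for the cap genes. Detected genes were 33125 to 34719 in garlic and 20133 to 22515 in diabetes, without overlap. With that number as a covariate the median of the members was -1.19, against -0.13 for all genes. The neuronal marker sum was 3222 to 3762 CPM in garlic and 2747 to 3037 CPM in diabetes, and the blood marker sum 115 to 154 CPM in garlic and 264 to 1755 CPM in diabetes, both without overlap. The part of detected genes beyond that model, and of these markers, was not tested.

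Both treated groups were also set against control. Curcumin against control had a median log2 fold change of 0.06, with 23 of 38 members above 0 (49.8% of all genes), and garlic against control one of -0.08, with 29 below 0 (50.5% of all genes). edgeR passed 0 members and 0% of all genes in both comparisons. At an unadjusted p under 0.05, 1 member, Psma4, was lower in curcumin (1.28% of all genes) and 0 were higher (1.06% of all genes). In garlic 0 members were higher (0.0782% of all genes) and 0 lower (0.0313% of all genes) at that threshold. DESeq2 and limma-voom passed 0 members as well, and at most 0.0196% of all genes. Curcumin lay above control without overlap for Psma2 and Psmd8 (2.82% of all genes), and garlic lay below it for Psma3, Psmc3ip and Psmd14 (6.11% of all genes). Psmb6 averaged 114 ± 35.0 CPM in curcumin, 110 ± 32.6 CPM in garlic and 112 ± 10.02 CPM in control (SD, n = 3, 2 and 3). Without curcumin library 2 the median of curcumin against control was -0.22, and curcumin lay below control without overlap for 10 members (20% of all genes) and above it for 2 (10.1% of all genes). With the trend on transcript length removed that median was 0.28, against 0.10 for all genes, with 31 members above 0 and 4 higher at an unadjusted p under 0.05 (3.26% of all genes). With the number of detected genes as a covariate it was 0.20, with 30 members above 0. With that covariate the median of garlic against control was -0.26, and without garlic library 1 that of garlic against control was 0.06. Whether levels in treated mice equal those in control was not shown by these tests.

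Per kilobase of transcript, averaged over the 12 libraries, Psmb6 was the most abundant at 201 CPM per kb, followed by the ATPase Psmc5 at 184 CPM per kb, Psmb4 at 176 CPM per kb and Psma7 at 136 CPM per kb. Within the alpha ring the levels ran from 136 CPM per kb for Psma7 to 9.13 CPM per kb for Psma3 and 5.75 CPM per kb for Psma5, although each finished ring holds each subunit once. The SD over libraries was 101 CPM per kb for Psmb6, 46.4 for Psmc5 and 89.2 for Psmb4. These SDs include the differences between groups, and the order of these neighbours was not tested. The first place of Psmb6 rests on the diabetes libraries, where it averaged 321 CPM per kb and Psmc5 226 CPM per kb. Psmc5 was above Psmb6 in curcumin (171 and 144 CPM per kb), in garlic (155 and 138 CPM per kb) and in control (159 and 141 CPM per kb). Median levels were 80.6 CPM per kb for the beta ring, 84.4 for the ATPases, 63.7 for the non-ATPases and 13.6 for the assembly chaperones. Psmb8 and Psmb9 were the lowest of the subunits tested, at 2.69 and 1.26 CPM per kb. One transcript length per gene was used, so a gene whose other isoforms prevail would be misplaced in this order.

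In an annotation on GRCm38, exons of 12 of the 40 genes overlapped those of another gene, on the opposite strand for 11 and on the same strand for Psmb5 and Psmd1. The share of the gene's exon bases was largest for Psmd9 (25.5%), Psmc3ip (21.2%), Psmb8 (14.7%), Psmb5 (12.1%), Psmb7 (11.8%) and Psmd13 (10.1%). The strand setting of the counting is not given in the sources used here, so counts of these genes are uncertain to that extent.

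Proteasome partners outside the name rule were followed with a list of 33 genes, of which 32 were tested: activators, core assembly factors, ubiquitin genes, shuttle factors and regulators. edgeR passed 0 of them in any comparison. In diabetes against control, 6 were higher (4.79% of all genes) and 1 lower (7.48% of all genes) at an unadjusted p under 0.05, with a median log2 fold change of 0.11. Psme1, a subunit of the activator that caps the core in place of the 19S particle, was at 85.8, 88.1, 138 and 122 CPM in diabetes and 57.7, 61.0 and 69.2 CPM in control, without overlap (log2 fold change 0.79 ± 0.24, adjusted p = 0.221). The core assembly chaperones Psmg1, Psmg4 and Pomp also did not overlap, with log2 fold changes of 1.03 ± 0.31, 1.28 ± 0.42 and 0.68 ± 0.24. Psmg3, a further chaperone of the core, and Ubb, a polyubiquitin gene, were above control without overlap as well, with log2 fold changes of 1.44 ± 0.78 and 0.75 ± 0.25. Psmg2, the partner of Psmg1, overlapped (0.30 ± 0.30). Psme2, also on the list, did not follow Psme1 and overlapped. It averaged 3.94 ± 2.23 CPM in diabetes and 4.62 ± 2.98 CPM in control (SD, log2 fold change -0.23 ± 0.68, adjusted p = 0.985). Psme3, a nuclear activator of the core, lay below control without overlap (-0.27 ± 0.19). Together, 6 partners lay above control without overlap (5.78% of all genes) and 1 below (8.94% of all genes). The 1 of 32 below is under the share of all genes. Psme4, another nuclear activator, was the one lower at an unadjusted p under 0.05, at 17.98, 45.5, 22.5 and 29.5 CPM in diabetes and 39.5, 42.3 and 57.1 CPM in control (log2 fold change -0.68 ± 0.28, adjusted p = 0.354).

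In curcumin against diabetes, 3 of the partners were higher (10.5% of all genes) and 9 lower (6.71% of all genes) at an unadjusted p under 0.05, with a median of -0.13. The 3 of 32 higher are near the share of all genes. Ubb was at 1171, 2066 and 1075 CPM in curcumin and 2814, 2640.0, 3319 and 3279 CPM in diabetes, without overlap (log2 fold change -1.07 ± 0.26, adjusted p = 0.0857). Curcumin lay below diabetes without overlap for 5 partners (4.19% of all genes) and above it for 1 (5.43% of all genes). Sem1, a small subunit of the lid outside the Psm names, averaged 33.2 ± 19.6 CPM in curcumin and 80.3 ± 19.9 CPM in diabetes (SD, n = 3 and 4, log2 fold change -1.28 ± 0.35, adjusted p = 0.108). Its groups overlapped, with curcumin library 2 at 55.8 CPM and diabetes library 2 at 52.5 CPM. Psme1 averaged 59.4 ± 6.93 CPM in curcumin and 109 ± 25.8 CPM in diabetes, without overlap (log2 fold change -0.87 ± 0.24, adjusted p = 0.108). In garlic against diabetes, 1 was higher (6.9% of all genes) and 6 were lower (4.03% of all genes) at that threshold, with a median of -0.20. Pomp was at 73.7 and 113 CPM in garlic and 173, 133, 171 and 188 CPM in diabetes (log2 fold change -0.83 ± 0.28, adjusted p = 0.341), without overlap. The higher one was Psme4, at 54.7 and 47.4 CPM in garlic, above every diabetes library (log2 fold change 0.82 ± 0.31, adjusted p = 0.388). Garlic lay below diabetes without overlap for 8 partners (7.52% of all genes) and above it for 2 (13.2% of all genes).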

How the data were processed

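Hypothalamic RNA of 12 libraries was extracted with Trizol, and stranded poly-A libraries were sequenced as paired reads, per the labels' protocols. The deposited values are raw counts per gene. FastQC, featureCounts and GRCm39 are named by the submitters' processing notes, and the aligner, annotation release, strand setting and treatment of multi-mapping reads were not given there, so reads shared with pseudogenes are uncertain. Of 78334 gene IDs, 51486 matched a symbol, carrying 97.8% of counts. No column was left unused. Groups come from the sample titles. Genes were filtered with filterByExpr by group (minimum count 10, minimum total 15), leaving 25562, and scaled by TMM. All libraries entered 1 model with 4 group means in edgeR 4.0.16 (glmQLFit, glmQLFTest, R 4.3.3), with Benjamini-Hochberg adjustment over all genes and a threshold of 0.05. DESeq2 1.42.0 and limma 3.58.1 (voom) were alternatives, and the scripts were tested on simulated data. SE is that of the log2 fold change, and CPM is counts relative to TMM-scaled library size. Transcript lengths came from GENCODE M21 (principal transcripts, GRCm38), used for lengths and overlaps of exons only, and promoter windows from RefSeq. Chi-square tests within groups stayed above sampling noise (lowest 20.1 per degree of freedom), so each library counted once. Genes described in full were, per comparison, the 4 of smallest p in each direction, the cutting and inducible subunits, and Psma3, Psmc4, Psmd11 and Psmd14. Counts of members without overlap were also taken without diabetes library 4 and curcumin library 2, an alternative chosen after seeing the data. The members and lists were chosen with earlier results of these data known.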

Additional observations from a re-analysis of the deposited data

Results flagged for a closer look

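In diabetes library 1, 3 cap-related genes stood apart from the other diabetes libraries, by a gap over range beyond Dixon's 95% value for 4 samples. Psmd11 was at 63.8 CPM, above 51.6 to 53.5 CPM in the others. Psmd3 was at 171 CPM, below 203 to 205 CPM in the others. Psmd5 was at 59.8 CPM, below 68.0 to 69.7 CPM in the others. Chance gives about 1 such result in 20 groups, and 40 genes were looked at. Of these, Psma8 and Psmb11, at 0 in every diabetes library, could not be flagged. The pseudogene Psmb5-ps, outside the comparisons, had 7 counts in garlic library 2 and 0 in every other library. The pseudogene Psmb6-ps2 had 7 counts in garlic library 1 and 8 in garlic library 2, against at most 3 in any control library. Only counts above control were flagged. The pseudogene Psmb6-ps, not flagged, had 7 counts in control library 3 and at most 1 in any other library.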

How the results depend on the processing

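The median log2 fold change of the members kept its sign in every alternative for diabetes against control (0.44 to 0.59 with 1 library left out at a time), curcumin against diabetes (-0.68 to -0.35) and garlic against diabetes (-0.71 to -0.49). With the covariate for detected genes it was 0.90, -0.63 and -1.19. It was -0.26 for garlic against control, where leaving out 1 library gave -0.18 to 0.060. For curcumin against control it was -0.20 without curcumin 2 and diabetes 4, and -0.22 to 0.20 with 1 library left out.

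The count of members that passed depended on the tool. For diabetes against control it was 13 by DESeq2, 12 by limma-voom, 4 with no filter, 6 with the length correction, 8 with the 2 groups only and 0 to 3 with 1 library left out. Of all genes, in either direction, 2.07% passed by DESeq2, 4.6% by limma-voom and 0.932% with no filter. With the length correction 0.918% passed, and with the 2 groups only 1.66%. For curcumin against diabetes it was 8 by DESeq2, 1 by limma-voom, 1 with RLE scaling, 5 with no filter, 2 with the covariate, 8 without curcumin 2 and diabetes 4, and 0 to 14 with 1 library left out. Of all genes, in either direction, 4.14% passed by DESeq2, 0.481% by limma-voom and 0.481% with RLE scaling. With no filter 2.25% passed, with the covariate 1.47%, and without curcumin 2 and diabetes 4 4.32%. For garlic against diabetes it was 13 by DESeq2, 10 by limma-voom, 3 with no filter, 6 with the length correction, and 0 to 1 with 1 library left out. Of all genes, in either direction, 1.69% passed by DESeq2, 1.68% by limma-voom, 0.709% with no filter and 0.987% with the length correction. In all genes, the count with 1 library left out was 0 to 194, 1 to 1975 and 0 to 71 in these comparisons, and 0 to 49 for curcumin and 0 for garlic against control. The cause was not tested. Libraries of the same replicate number in different groups had correlations of -0.18 to 0.25, with 4 of 15 over 0.1. Pairs of different numbers had -0.37 to 0.37. Values were centred within small groups, which ties the correlations to each other, so they cannot show whether the numbers pair the libraries. With a replicate block 0 members passed, and the medians were 0.52, -0.48, -0.55, 0.05 and -0.05.

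Of the values of single members, 33 reversed, 830 kept their side and 83 newly passed. In diabetes against control, Psmd1 was 0.00011 with DESeq2, 5.7e-05 with RLE scaling, 0.15 with the length correction, and -0.24 to 0.13 with 1 library left out. Psmd11 was 0.12 with the length correction and 0.54 with the covariate. Psmb9 was -1.26 by limma-voom, -0.14 without curcumin 2 and diabetes 4, -0.38 with the replicate block and -0.16 to 0.67 with 1 left out. In curcumin against diabetes, Psmd5 was -0.19 with the length correction and -0.15 to 0.20 with 1 left out, Psmb9 was -0.18 with the covariate and -0.27 to 0.56 with 1 left out, and Psmd2 was -0.032 without curcumin 2 and diabetes 4 and -0.0092 to 0.22 with 1 left out. In garlic against diabetes, Psma5 was -0.033 by DESeq2 and by RLE scaling, -0.0044 by limma-voom, -1.24 with the covariate and -0.34 to 0.28 with 1 left out. Psmb9 was 0.63 by limma-voom, and Psmd11 was 0.027 with no filter, 0.045 with the 2 groups only and -0.11 to 0.065 with 1 left out. Low counts limit Psmb9, Psmb8 and Psma5 most.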
